A study of Mus musculus with 27 samples.

Results

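The 7 genes described here are the complement components C1qa, C1qb, C1qc, C3, C4b, Cfb and Cfp. They were taken by name from a count table of 29872 genes, and 6 of them held enough reads to be tested, Cfb being too low, among 14589 genes tested in all. Complement is a cascade of plasma and cell-surface proteins that tags particles for uptake, calls in leukocytes and can lyse membranes. Most components come from the liver, but macrophages make a set of their own, among them the 3 chains of C1q and properdin, and macrophages are a principal source of C1q.

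Poly(A) RNA was sequenced from bone marrow-derived macrophages of male mice aged 8 to 10 weeks. Marrow was grown for 5 days in medium with 20% serum and 10% L-cell conditioned medium, which supplies macrophage growth factor. Cells were then treated for 24 h with 10 ng/ml interleukin 4 (IL4), 500 nM corticosterone (CORT) or 100 nM dexamethasone (DEX). Others received vehicle, for which the sample labels give no time. IL4 is the cytokine of alternative activation, corticosterone is the glucocorticoid that mice make, and dexamethasone is a synthetic glucocorticoid. The knockout (KO) was LysM-Cre+/+; GRIP1fl/fl, in which Cre driven by the myeloid gene LysM (Lyz2) cuts out a floxed segment of Ncoa2, the gene of the glucocorticoid receptor coregulator GRIP1. The wild type (WT) is called BL6 in the titles and C57BL/6, LysM-Cre+/+; GRIP1wt/wt in the genotype field, so whether it carried Cre is not settled by the labels. WT groups held 3 libraries each, the KO IL4 group 3 and the other KO groups 4, 27 in all. Whether libraries of a group come from different animals is not stated in the labels, so every p-value here reflects the spread between libraries alone, and that spread may be technical.

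Libraries held 20162729 to 48023102 counts. Ncoa2 was at 55.7 to 93.4 CPM (a gene's count relative to the library total, scaled by the TMM method and brought to a common size) in WT and 16.1 to 26.0 CPM in KO libraries, with no overlap. The 8 macrophage markers examined (Adgre1, Csf1r, Cd68, Lyz2, Fcgr1, Mertk, Cd14 and Itgam) summed to 5484 to 6876 CPM in every library. Among them Lyz2, the gene that drives Cre, was at 20.1 to 50.8 CPM over all WT and KO libraries, and Csf1r at 1818 to 2428 CPM. Whether the Lyz2 level reflects Cre in WT was not tested. Other cell types differed with genotype. The 8 stromal markers, Col1a1 and Dcn among them, summed to 160 to 819 CPM in WT and 11.3 to 46.6 CPM in KO, and the WT library numbered 1 of each treatment stood apart at 670 to 819 CPM. The 8 neutrophil markers summed to 49.1 to 348 CPM in WT and 6.18 to 17.0 CPM in KO. The 4 monocyte markers summed to 8.23 to 28.7 CPM in WT and 3.62 to 10.9 CPM in KO. T and NK cell markers summed to at most 0.681 CPM and erythroid markers to at most 0.324 CPM. The part of these cells in the differences between genotypes given below was not tested, and in bulk RNA fewer cells of a type and less RNA per cell cannot be told apart. Arg1, which IL4 induces, was at 67.1 to 117 CPM in 4 libraries without IL4 (WT DEX 1, KO vehicle 2 and 3, KO DEX 2) and at 0.114 to 12.2 CPM in the others without it.

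C1q is the recognition molecule of the classical pathway: it binds antibody complexes, dying cells and other ligands through globular heads built from an A, a B and a C chain. The chains are encoded by neighbouring genes on chromosome 4 (GRCm38), all on the minus strand. C1qb (ENSMUSG00000036905) lies at 136880129 to 136886187, C1qc (ENSMUSG00000036896) at 136889804 to 136893065 and C1qa (ENSMUSG00000036887) at 136895917 to 136898803. Gaps of 3616 and 2851 bases separate them, and the cluster spans 18675 bases. The promoters of C1qb and C1qc are shown because these 2 genes moved most closely together, both upward with glucocorticoids. Each runs 5′ to 3′ on the minus strand, from 250 bases before to 50 bases after the RefSeq start (GRCm38.p6), at chr4:136886151-136886450 for C1qb and chr4:136892865-136893164 for C1qc. Capitals mark the letters TGTTCT, or their reverse complement, the half-site of the glucocorticoid receptor.
C1qb: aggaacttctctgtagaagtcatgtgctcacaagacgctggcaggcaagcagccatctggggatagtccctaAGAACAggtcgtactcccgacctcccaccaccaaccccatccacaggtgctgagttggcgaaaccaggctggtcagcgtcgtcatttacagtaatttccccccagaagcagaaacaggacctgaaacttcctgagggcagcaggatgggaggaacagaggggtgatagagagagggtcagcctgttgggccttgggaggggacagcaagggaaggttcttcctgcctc
C1qc: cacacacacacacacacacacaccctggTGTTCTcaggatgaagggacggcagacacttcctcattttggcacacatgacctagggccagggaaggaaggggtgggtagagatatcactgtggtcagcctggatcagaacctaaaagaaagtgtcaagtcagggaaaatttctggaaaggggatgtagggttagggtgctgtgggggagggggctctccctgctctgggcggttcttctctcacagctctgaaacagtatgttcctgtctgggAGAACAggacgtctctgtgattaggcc

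The promoter table matched 4 of the 7 genes (C1qb, C1qc, C3 and Cfp), and short motifs were searched on both strands. The half-site TGTTCT occurred 1 time in the C1qb window and 2 times in the C1qc window, and it occurs in 19% of 32851 promoters of this length. The C3 and Cfp windows held 0 matches to it. The other motifs given here matched none of the 4 windows. They were the full glucocorticoid receptor site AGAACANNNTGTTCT, which contains the half-site (found in 0.00913% of promoters), the MAF half-site TGCTGAC (4.67%), the NF-kappaB motif GGGNNTTCC (5.82%), the STAT6 type TTCNNNNGAA (6.95%) and the interferon response motif GAAANNGAAA (3.44%). A match is a string of letters and not evidence of binding, and no match says only that these letters are not in these windows.

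All 3 C1q chain genes were abundant, and glucocorticoids raised them in both genotypes, except that C1qa with CORT in WT did not pass. Per kilobase of exon, the mean level over the 27 libraries was 1166 CPM for C1qb, 625 CPM for C1qa and 492 CPM for C1qc. Properdin stood at 321, C3 at 13.1, C4b at 0.0876 and Cfb at 0.0360 CPM per kilobase. The range from the lowest to the highest library was 2.35-fold for C1qb, 2.26-fold for C1qc and 4.14-fold for C1qa.

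C1qb encodes the B chain. In WT libraries its level was 1105, 1061 and 1169 CPM with vehicle, 1397, 1443 and 1567 CPM with CORT, and 1549, 1620 and 1682 CPM with DEX. In KO libraries it was 960, 1110, 900.2 and 1057 CPM with vehicle, 1335, 1492, 1352 and 1457 CPM with CORT, and 1625, 1427, 1509 and 1410 CPM with DEX. Every glucocorticoid-treated library lay above every vehicle library of either genotype. By edgeR's quasi-likelihood test, with p-values adjusted over all genes tested, C1qb rose with CORT by a log2 fold change of 0.40 ± 0.10 in WT (SE, adjusted p = 0.0127) and 0.49 ± 0.09 in KO (adjusted p = 0.000332). With DEX it rose by 0.54 ± 0.10 in WT (adjusted p = 0.000373) and 0.57 ± 0.09 in KO (adjusted p = 2.87e-05), that is 1.45- and 1.48-fold. The WT CORT call was lost without WT vehicle library 2 (adjusted p = 0.0658), without WT CORT library 3 (adjusted p = 0.0807) and without the WT libraries numbered 1 (adjusted p = 0.0718).

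C1qc encodes the C chain. In WT it was at 850.3, 859 and 905 CPM with vehicle, 1112, 1161 and 1233 CPM with CORT, and 1212, 1284 and 1248 CPM with DEX. KO libraries were at 741, 823, 687 and 802 CPM with vehicle, 986, 1073, 959 and 1010 CPM with CORT, and 1063, 1004, 1038 and 1011 CPM with DEX. The treated libraries again lay above all vehicle libraries, and those of WT lay above those of KO. C1qc rose with CORT by 0.42 ± 0.08 on the log2 scale in WT (adjusted p = 0.00114) and 0.40 ± 0.07 in KO (adjusted p = 0.000238), and with DEX by 0.52 ± 0.08 in WT (adjusted p = 4.27e-05) and 0.43 ± 0.07 in KO (adjusted p = 5.54e-05).

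C1qa encodes the A chain. In WT it was at 745, 666 and 735 CPM with vehicle, 902, 900.2 and 973 CPM with CORT, and 972, 992 and 1020 CPM with DEX. KO libraries were at 405, 495, 462 and 418 CPM with vehicle, 606, 686, 665 and 573 CPM with CORT, and 693, 587, 753 and 542 CPM with DEX. Treated libraries lay above the vehicle libraries of their own genotype, but 5 of the 8 treated KO libraries lay below all WT vehicle libraries. C1qa rose in KO by 0.51 ± 0.11 on the log2 scale with CORT (adjusted p = 0.00248) and 0.53 ± 0.11 with DEX (adjusted p = 0.000976), and in WT by 0.48 ± 0.13 with DEX (adjusted p = 0.0113). In WT with CORT the difference was 0.37 ± 0.13 (adjusted p = 0.0901), and with the replicate block it was 0.37 (adjusted p = 0.00711). The WT DEX call was lost without WT vehicle library 2 (adjusted p = 0.0582) or WT DEX library 3 (adjusted p = 0.0523).

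**Figure D1:**
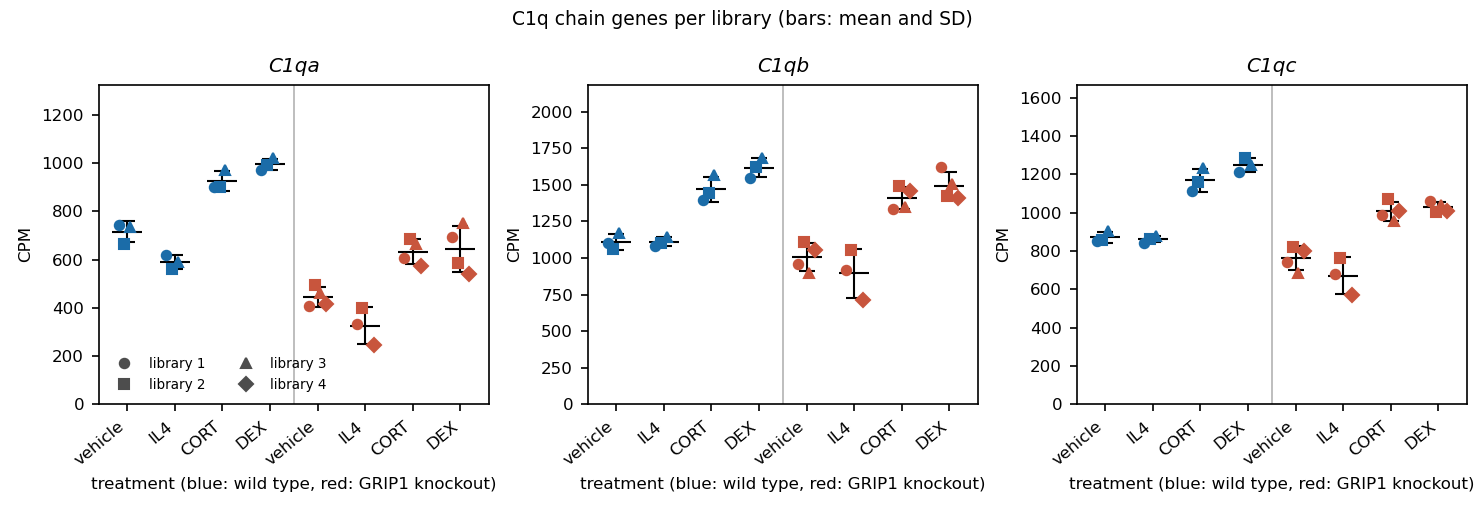
Levels of C1qa, C1qb and C1qc in CPM (linear axis from 0) in each of the 27 libraries, by treatment and genotype, with the mean and SD of each group as bars and the library number as the symbol. The CORT and DEX libraries lie above the vehicle libraries of the same genotype in all 3 plots, and for C1qa all KO libraries lie below the WT libraries of the same treatment.

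With IL4, C1qa was below its vehicle level in both genotypes, and the call passed in KO. In WT, C1qa was at 618, 561 and 592 CPM with IL4, below all vehicle libraries. The log2 difference from vehicle was −0.28 ± 0.13 (adjusted p = 0.103), and with the replicate block −0.28 (adjusted p = 0.0179). In KO, C1qa was at 334, 399 and 246 CPM with IL4, also below all vehicle libraries, and fell by 0.45 ± 0.12 on the log2 scale (adjusted p = 0.00704). The KO fall rested on 1 library: without KO IL4 library 4, the lowest of all 27, it was −0.28 (adjusted p = 0.0745). It also missed the threshold without the 4 libraries high in Arg1 (adjusted p = 0.0824), and when only the KO IL4 and vehicle groups were fitted (adjusted p = 0.0817).

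C1qb and C1qc did not pass against vehicle with IL4 in either genotype. C1qb was at 1083, 1105 and 1143 CPM in WT with IL4, among the vehicle libraries, a log2 difference of 0.00 (95% interval −0.20 to 0.20, adjusted p = 0.993). In KO it was at 917, 1052 and 714.5 CPM, and the difference was −0.17 (−0.36 to 0.02, adjusted p = 0.183). C1qc in WT was at 844, 864 and 878 CPM, a difference of −0.02 (−0.18 to 0.15, adjusted p = 0.917). In KO C1qc was at 679, 763 and 569 CPM, a difference of −0.19 (−0.34 to −0.04, adjusted p = 0.0619) that passed with the replicate block (−0.21, adjusted p = 0.0128).

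Among the members tested against vehicle, counts were read against the share of all genes called in the same comparison. In WT, 1 of 6 was called with IL4, where 30.1% of genes were called, 2 of 6 with CORT (5.94%) and 4 of 6 with DEX (13.7%). In KO, 2 of 6 were called with IL4 (26.5%), 4 of 6 with CORT (12.1%) and 4 of 6 with DEX (18.4%). With the replicate block, 3 were called with IL4, 5 with CORT and 5 with DEX in WT, and 5 with IL4 in KO. The shares above are of the fit without the block. Over the alternative fits, the block among them, 3493 to 5827 of all genes were called with IL4 in WT. The ranges were 486 to 1790 with CORT and 1327 to 3225 with DEX in WT, and 1745 to 5219 with IL4 in KO. The median log2 fold change of the 6 was 0.34 with CORT and 0.37 with DEX in WT, against 0.01 over all genes in both. The KO median was 0.28 with CORT and 0.28 with DEX, against 0.00 over all genes in both.

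C1qa was lower in KO than in WT under every condition, and the libraries of the genotypes did not overlap under any. The level in KO was 0.622 times that in WT with vehicle, 0.553 times with IL4, 0.684 times with CORT and 0.647 times with DEX. The log2 differences were −0.68 ± 0.12 with vehicle (adjusted p = 0.000198), −0.85 ± 0.13 with IL4 (adjusted p = 0.000115), −0.55 ± 0.12 with CORT (adjusted p = 0.00206) and −0.63 ± 0.12 with DEX (adjusted p = 0.000511). These 4 calls were kept under every alternative, among them the fit without the WT libraries numbered 1, which had the most stromal RNA. The WT libraries left in that fit still held 160 to 347 CPM of stromal markers, above all KO libraries. Stromal, neutrophil and monocyte markers were higher in WT, as given above, and their part in the difference was not tested.

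C1qc was lower in KO by smaller amounts. The log2 difference was −0.36 ± 0.08 with IL4 (adjusted p = 0.00367) and −0.28 ± 0.07 with DEX (adjusted p = 0.00927), and both passed. With vehicle it was −0.19 (adjusted p = 0.0721) and with CORT −0.21 (adjusted p = 0.0501), although the libraries of the genotypes did not overlap in any of the 4 conditions. The vehicle difference passed by DESeq2 (adjusted p = 0.0404), and the CORT difference by DESeq2 (adjusted p = 0.0247), with RLE scaling (adjusted p = 0.048) and when only the 2 CORT groups were fitted (adjusted p = 0.0228). The IL4 call was lost when only the 2 IL4 groups were fitted (adjusted p = 0.101), and the DEX call without WT DEX library 2 (adjusted p = 0.0517).

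Of the 3 chains C1qb had the smallest fitted differences between genotypes. The log2 difference was −0.14 with vehicle (95% interval −0.33 to 0.05), −0.06 with CORT (−0.25 to 0.13) and −0.12 with DEX (−0.30 to 0.07), and none of these passed. With IL4 it was −0.31 ± 0.10 (adjusted p = 0.0382) and the libraries did not overlap, but without KO IL4 library 4 the difference was −0.17 (adjusted p = 0.262). The call was also lost without any 1 of the 3 WT IL4 libraries (adjusted p = 0.0658 to 0.079), without KO IL4 library 1 (adjusted p = 0.0574) and without the WT libraries numbered 1 (adjusted p = 0.0978). Without KO IL4 library 2 it was −0.48 (adjusted p = 0.00385).

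The ratio of C1qa to C1qb within a library, per kilobase of exon, was chosen after the values were seen and is given as a description. It was 0.657, 0.658 and 0.705 in the WT vehicle libraries, 0.531 to 0.597 with IL4, 0.650 to 0.676 with CORT and 0.635 to 0.656 with DEX. In KO libraries it was 0.413 to 0.537 with vehicle, 0.361 to 0.396 with IL4, 0.412 to 0.514 with CORT and 0.402 to 0.522 with DEX. Under each treatment all KO ratios lay below all WT ratios, and within each genotype the IL4 libraries had the lowest ratios. The ratio of C1qc to C1qb varied less, from 0.418 to 0.456 in WT and from 0.368 to 0.449 in KO. With CORT it was 0.443 to 0.453 in WT and 0.391 to 0.416 in KO. With DEX it was 0.418 to 0.447 in WT and 0.368 to 0.404 in KO. All KO ratios thus lay below all WT ratios under both glucocorticoids, while with vehicle and with IL4 the genotypes overlapped. The exons of the 3 genes share no stretch of 50 bases with another annotated gene.

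**Figure D2:**
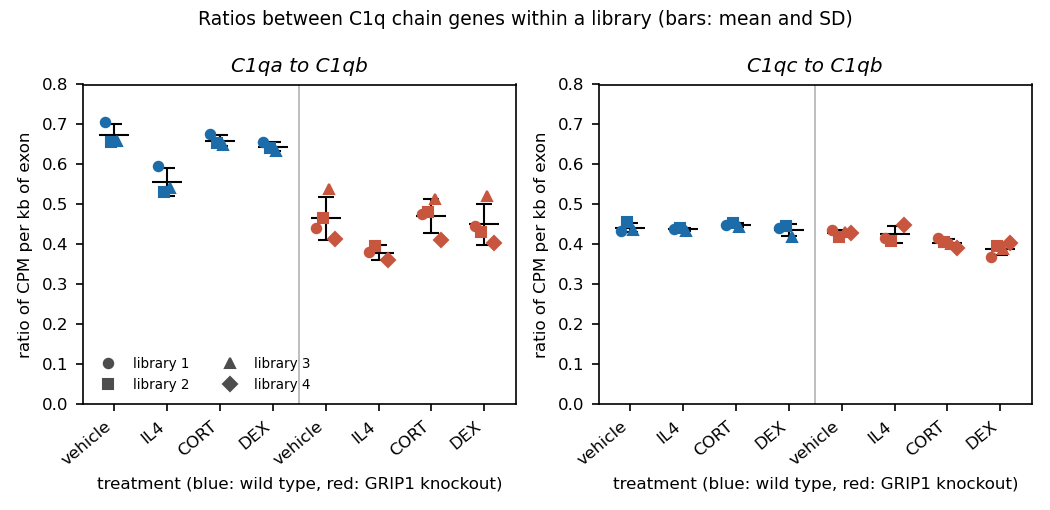
Ratio of C1qa to C1qb and of C1qc to C1qb in each library, both from CPM per kilobase of exon (linear axis from 0), with group means and SD as bars. The C1qa to C1qb ratio is 0.531 to 0.705 in WT and 0.361 to 0.537 in KO libraries. The C1qc to C1qb ratio is 0.418 to 0.456 in WT and 0.368 to 0.449 in KO libraries.

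The order of the group means differed between the chains. C1qa was highest in WT DEX (995 ± 24.3 CPM, SD, n = 3) and WT CORT (925 ± 41.4 CPM, n = 3), whose libraries overlapped. WT vehicle (715 ± 42.7 CPM, n = 3), KO DEX (644 ± 96.6 CPM, n = 4), KO CORT (633 ± 51.9 CPM, n = 4) and WT IL4 (590.2 ± 28.6 CPM, n = 3) followed, each overlapping the next. KO vehicle (445 ± 41.4 CPM, n = 4) and KO IL4 (326 ± 76.4 CPM, n = 3) were lowest and overlapped neither each other nor the groups above. For C1qb the 4 glucocorticoid groups, from 1617 ± 66.4 CPM in WT DEX to 1409 ± 77.3 CPM in KO CORT, each overlapped the next. The other 4 groups, from 1112 ± 54.2 CPM in WT vehicle to 895 ± 170 CPM in KO IL4, did so too, with a gap only between the 2 sets. For C1qc there were gaps below WT CORT (1168 ± 60.7 CPM), KO CORT (1007 ± 48.8 CPM) and WT IL4 (862 ± 17.3 CPM).

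C3 is the component on which all activation routes converge: its cleavage gives the fragment C3b, which coats targets, and C3a, which signals to leukocytes. The gene (ENSMUSG00000024164) lies on chromosome 17, 57203970 to 57228136, minus strand. With glucocorticoids its level went the other way from the C1q chains, being lower than with vehicle. With IL4 its mean was above that with vehicle in both genotypes, but neither difference passed by edgeR (adjusted p = 0.2 in WT and 0.132 in KO). C1qb and C1qc did not pass with IL4 either, as given above. In WT it was at 84.2, 60.8 and 52.8 CPM with vehicle, 116, 81.6 and 72.4 CPM with IL4, 56.3, 38.6 and 32.7 CPM with CORT, and 56.7, 34.5 and 33.3 CPM with DEX. Library 1 was the highest under each of the 4 treatments, and each treated WT group overlapped the WT vehicle group. The WT IL4 libraries lay above all WT CORT and WT DEX libraries. Each library was nevertheless higher with IL4, and lower with CORT and DEX, than the vehicle library of the same number. KO libraries were at 69.4, 83.4, 88.2 and 98.0 CPM with vehicle, 101, 111 and 143 CPM with IL4, 45.0, 45.5, 43.8 and 58.6 CPM with CORT, and 40.4, 60.3, 42.4 and 69.3 CPM with DEX. There the IL4 libraries lay above the vehicle libraries, and the CORT and DEX libraries below them.

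The fall of C3 passed in KO, by 0.81 ± 0.22 on the log2 scale with CORT (adjusted p = 0.0154) and by 0.67 ± 0.22 with DEX (adjusted p = 0.0334). The CORT call was lost without KO CORT library 3 (adjusted p = 0.0523) and without the 4 libraries high in Arg1 (adjusted p = 0.0735). The DEX call was lost without KO vehicle library 2, 3 or 4 (adjusted p = 0.0553, 0.0735 and 0.0875), KO DEX library 1 or 3 (adjusted p = 0.11 and 0.111) or the 4 libraries high in Arg1 (adjusted p = 0.0995), and with no filter on low counts (adjusted p = 0.0988). In WT the differences were −0.63 ± 0.25 with CORT (adjusted p = 0.181) and −0.67 ± 0.25 with DEX (adjusted p = 0.0888). With IL4 they were 0.45 ± 0.25 in WT (adjusted p = 0.2) and 0.48 ± 0.23 in KO (adjusted p = 0.132).

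Same-numbered libraries deviated together, clearly in WT and less so in KO. For IL4 against vehicle their deviations correlated at 0.279 to 0.713 in WT and at 0.115 to 0.28 in KO. A fit that blocks on the replicate number removes such shared deviations. In that fit C3 passed in each comparison against vehicle whose numbers pair the libraries. In WT it rose with IL4 by 0.44 on the log2 scale (adjusted p = 0.00028), fell with CORT by 0.64 (adjusted p = 2.73e-05) and fell with DEX by 0.68 (adjusted p = 5.95e-06). In KO it rose with IL4 by 0.44 (adjusted p = 0.000325). Without WT DEX library 1 the WT DEX difference was −0.97 (adjusted p = 0.0193).

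C3 did not pass between genotypes in any of the 4 conditions by edgeR, with 0 of 4 at an unadjusted p under 0.05 and 0 of 4 by DESeq2. The log2 differences, KO minus WT, were 0.36 with vehicle (95% interval −0.12 to 0.85), 0.40 with IL4 (−0.12 to 0.92), 0.18 with CORT (−0.31 to 0.68) and 0.36 with DEX (−0.13 to 0.86). All 4 were above 0. Without the WT libraries numbered 1, the difference with DEX was 0.65 (adjusted p = 0.0381).

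Properdin, encoded by Cfp (ENSMUSG00000001128, chromosome X, 20925454 to 20931555, minus strand), stabilises the alternative pathway convertase and is released by myeloid cells. IL4 lowered it in both genotypes, and DEX lowered it in WT. In WT it was at 658.1, 577 and 658.4 CPM with vehicle, 500.1, 485 and 521 CPM with IL4, 494, 477 and 554 CPM with CORT, and 435, 465 and 515 CPM with DEX. KO libraries were at 598, 583, 518 and 610.3 CPM with vehicle, 457, 514 and 385 CPM with IL4, 642, 690.4, 623 and 641 CPM with CORT, and 706, 540.2, 634 and 559 CPM with DEX. All treated WT libraries lay below all WT vehicle libraries, whereas the KO CORT libraries lay above the KO vehicle libraries and the KO DEX libraries overlapped them.

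With IL4, Cfp fell by 0.33 ± 0.10 on the log2 scale in WT (adjusted p = 0.0142) and by 0.35 ± 0.09 in KO (adjusted p = 0.00784). With DEX it fell by 0.42 ± 0.10 in WT (adjusted p = 0.00535), and with CORT the WT difference was −0.31 ± 0.10 (adjusted p = 0.0703), passing with the replicate block (adjusted p = 0.0208). In KO the differences were 0.17 ± 0.09 with CORT (adjusted p = 0.251) and 0.08 ± 0.09 with DEX (adjusted p = 0.602). The WT IL4 call was lost without WT vehicle library 3 (adjusted p = 0.0597), without WT IL4 library 2 (adjusted p = 0.0693) and without the WT libraries numbered 1 (adjusted p = 0.105). The last setting also ended the WT DEX call (adjusted p = 0.119). The KO IL4 call was lost without KO IL4 library 4 (adjusted p = 0.0786) and when only those 2 groups were fitted (adjusted p = 0.0648).

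Under glucocorticoids Cfp was higher in KO than in WT, by 0.35 ± 0.09 on the log2 scale with CORT (adjusted p = 0.0125) and by 0.37 ± 0.09 with DEX (adjusted p = 0.0078). The libraries of the genotypes did not overlap in these 2 conditions. The CORT call was lost without WT CORT library 1 (adjusted p = 0.0731) or 2 (adjusted p = 0.0722), the DEX call without WT DEX library 1 (adjusted p = 0.0644), and both without the WT libraries numbered 1 (adjusted p = 0.0777 and 0.0783). With vehicle the difference was −0.13 (95% interval −0.32 to 0.06, adjusted p = 0.407) and with IL4 −0.15 (−0.36 to 0.06, adjusted p = 0.344). The stromal and neutrophil markers that were higher in WT were so under all treatments, and their part here was not tested.

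**Figure D3:**
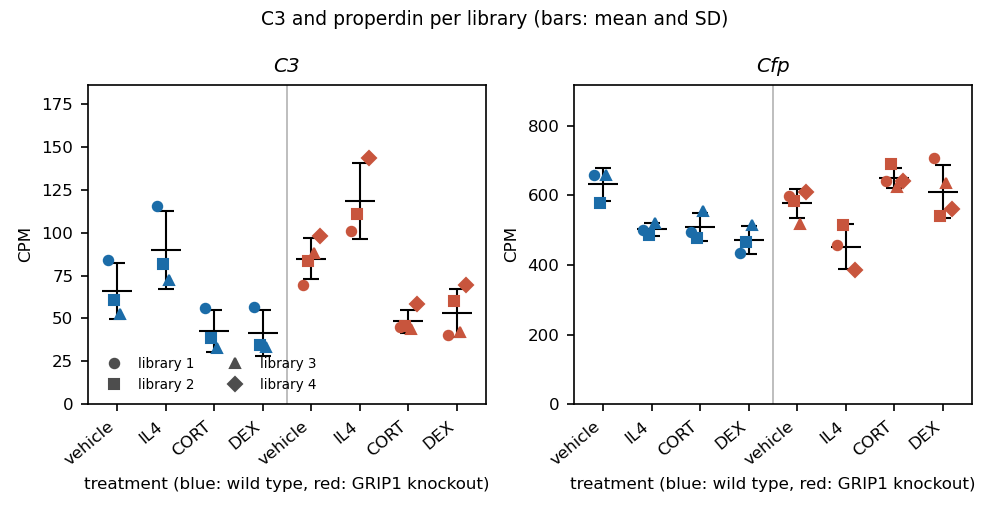
Levels of C3 and Cfp in CPM (linear axes from 0) in each of the 27 libraries, by treatment and genotype, with group means and SD as bars and the library number as the symbol. C3 is lowest in the CORT and DEX groups, and Cfp with CORT is 477 to 554 CPM in WT and 623 to 690.4 CPM in KO.

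Whether a response differed without GRIP1 was tested as the KO response minus the WT response. By edgeR, 0 of 6 members passed for IL4, CORT or DEX, where 0.0274%, 0.0206% and 0.185% of all genes were called. At an unadjusted p under 0.05 there were 0, 1 and 1, and DESeq2 called 0, 0 and 1, the member being Cfp each time. Its interaction was 0.48 ± 0.13 on the log2 scale with CORT (95% interval 0.21 to 0.76, adjusted p = 0.219) and 0.50 ± 0.13 with DEX (0.23 to 0.77, adjusted p = 0.19). With DEX it passed by DESeq2 (adjusted p = 0.0487) and with the replicate block (0.50, adjusted p = 0.0348). The DEX interaction includes DEX against vehicle in KO, where the replicate numbers do not pair the libraries (lowest correlation 0.00519). For the C1q chains the interactions with CORT and DEX lay between −0.09 and 0.14. The 95% intervals of C1qa, the widest of the 3 chains, ran from −0.21 to 0.48 with CORT and from −0.29 to 0.40 with DEX. For C3 it was −0.18 with CORT (−0.87 to 0.51) and 0.00 with DEX (−0.72 to 0.72).

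Between genotypes, 1 of 6 members was called with vehicle (18.8% of all genes), 3 of 6 with IL4 (12.4%), 2 of 6 with CORT (14.4%) and 3 of 6 with DEX (17.2%). C1qa was among the lower ones each time, and Cfp was the higher one with CORT and with DEX. The plot of fitted fold changes sets these values side by side.

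**Figure D4:**
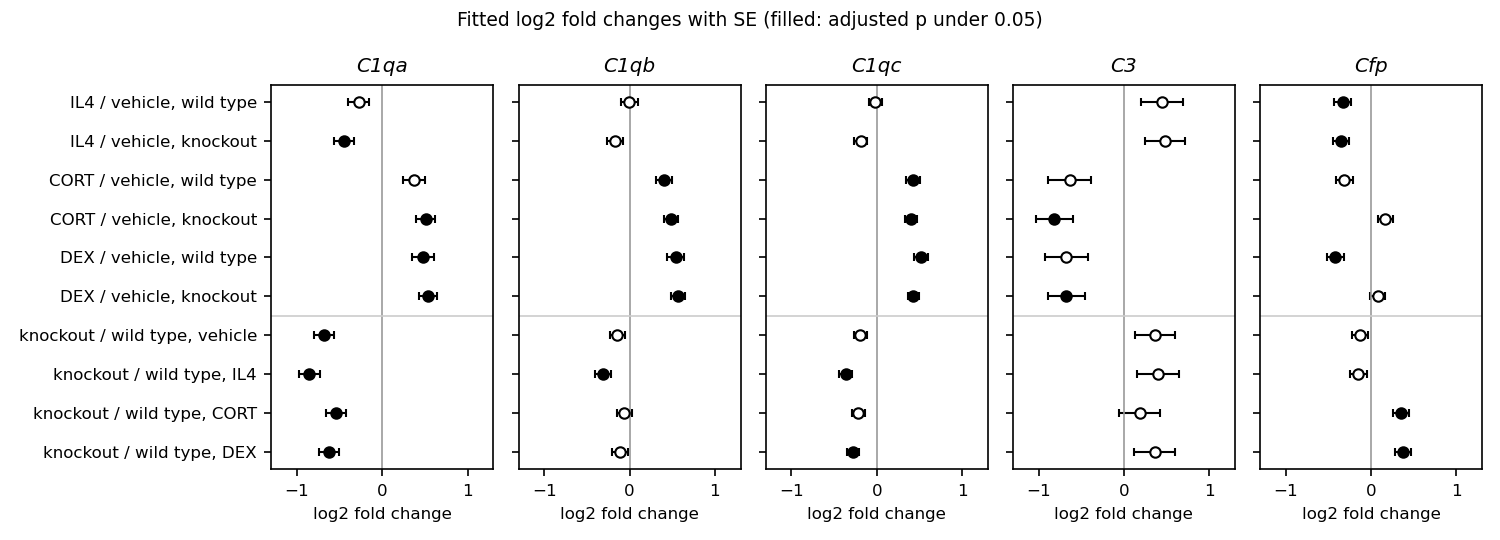
Fitted log2 fold changes of C1qa, C1qb, C1qc, C3 and Cfp for each treatment against vehicle and for KO against WT, with SE as bars and filled points for an adjusted p under 0.05. The C1q chains lie right of 0 with CORT and DEX and C3 lies left of 0, and C1qa is the gene whose KO against WT value is filled in all 4 conditions.

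The 2 glucocorticoids were given at different doses, 500 nM CORT and 100 nM DEX. None of the 6 members passed between them by edgeR in either genotype, with 0 at an unadjusted p under 0.05 and 0 by DESeq2, where 0.185% of all genes were called in WT and 0.322% in KO. The log2 difference of DEX from CORT in WT was 0.10 for C1qa (95% interval −0.16 to 0.36), 0.14 for C1qb (−0.06 to 0.34), 0.10 for C1qc (−0.07 to 0.26), −0.04 for C3 (−0.57 to 0.49) and −0.11 for Cfp (−0.32 to 0.10). The KO values were 0.03 for C1qa (−0.20 to 0.25), 0.08 for C1qb (−0.09 to 0.26), 0.03 for C1qc (−0.11 to 0.17), 0.14 for C3 (−0.32 to 0.60) and −0.09 for Cfp (−0.27 to 0.09). These intervals do not show that the 2 act alike.

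IL4 and the glucocorticoids, compared directly, set C3 and the C1q chains apart. With IL4 C3 was higher than with CORT by 1.08 ± 0.25 on the log2 scale in WT (adjusted p = 0.00215) and 1.29 ± 0.23 in KO (adjusted p = 0.000123). Against DEX it was higher by 1.12 ± 0.26 in WT (adjusted p = 0.00159) and 1.15 ± 0.23 in KO (adjusted p = 0.000417). All 3 C1q chain genes were lower with IL4 in each of these 4 comparisons, from −0.40 ± 0.10 for C1qb against CORT in WT (adjusted p = 0.0025) to −0.98 ± 0.12 for C1qa against DEX in KO (adjusted p = 6.33e-07). Cfp was lower with IL4 in KO, by −0.52 ± 0.10 against CORT (adjusted p = 0.000113) and −0.43 ± 0.09 against DEX (adjusted p = 0.000844). In WT its differences were −0.02 (95% interval −0.22 to 0.19) and 0.09 (−0.12 to 0.30). In WT 4 of 6 members were called in both comparisons (31.7% of all genes in each), and in KO 5 of 6 in both (37.9% and 38.0%). These comparisons share their libraries with those against vehicle.

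C4b encodes C4, the classical and lectin pathway component cut by C1s and MASP proteases (ENSMUSG00000073418, chromosome 17, 34728380 to 34743882, minus strand). It was close to the limit of the depth, with 2 to 34 counts in a library and 368 in all. In WT it was at 0.839, 0.337 and 0.581 CPM with vehicle, 0.761, 0.645 and 0.242 CPM with IL4, 1.29, 0.512 and 0.378 CPM with CORT, and 1.14, 0.552 and 0.443 CPM with DEX. Library 1 was the highest under each treatment, and these were also the libraries with the most stromal marker RNA, whose part in the C4b level was not tested. KO libraries were at 0.280 to 0.736 CPM with vehicle, 0.0810 to 0.306 CPM with IL4, 0.266 to 0.600 CPM with CORT and 0.392 to 0.529 CPM with DEX. No comparison passed in the fit of all libraries. The largest difference was that between genotypes with IL4, −1.57 ± 0.60 on the log2 scale (adjusted p = 0.0866), followed by −1.41 ± 0.58 for IL4 against DEX in KO (adjusted p = 0.0572) and −1.28 ± 0.57 for IL4 against vehicle in KO (adjusted p = 0.103). With the replicate block, the 2 within KO were −1.47 (adjusted p = 0.0172) and −1.35 (adjusted p = 0.0354). Of the 50-base windows in C4b exons, 34.6% also occur in its neighbour C4a, so reads of the pair can be shared between them or dropped.

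**Figure D5:**
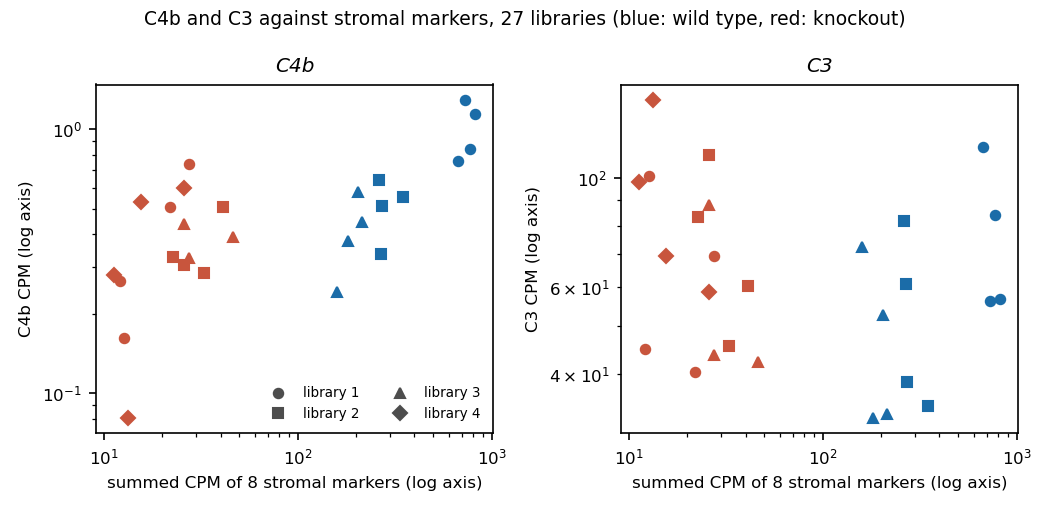
C4b and C3 levels (CPM, log axis) against the summed CPM of the 8 stromal markers (log axis) in 27 libraries, coloured by genotype, with the library number as the symbol. The WT libraries numbered 1 have 670 to 819 CPM of stromal markers and the 4 highest C4b levels, and the KO libraries have 11.3 to 46.6 CPM of stromal markers.

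Cfb encodes factor B, the protease of the alternative pathway convertase (ENSMUSG00000090231, chromosome 17, 34856374 to 34862518, minus strand). It was at 0 to 6 counts in a library, 76 over all 27, and 1 WT IL4 library held 0, which allows up to 3 counts. Levels ran from 0 to 0.204 CPM, and the libraries of all groups overlapped. Cfb was left out of the tests by the filter on low counts. Fitted without that filter, it passed in 0 of 19 comparisons by edgeR, with 0 at an unadjusted p under 0.05 and a lowest adjusted p of 0.411. A difference in Cfb was not detectable at this depth. Of its 2825 exon bases, 2246 also belong to the annotated gene Gm20547 on the same strand, so reads from there may not have been counted for Cfb.

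Of the other complement genes, those that start the cascade were mostly scarce. Besides the members, 15 genes of the classical and lectin pathways were listed and 8 were tested. Fcna, a soluble lectin of macrophages, was at 12.8 ± 1.09 CPM in WT vehicle (SD, n = 3) and 17.9 ± 0.583 CPM in WT DEX (n = 3). It rose with DEX by 0.49 ± 0.15 on the log2 scale in WT (adjusted p = 0.0255) and 0.90 ± 0.13 in KO (adjusted p = 1.37e-05), rose with CORT in KO by 0.58 ± 0.13 (adjusted p = 0.00304) and fell with IL4 in KO by 0.69 ± 0.14 (adjusted p = 0.00107). In WT, 0 of the 8 rose with CORT and 1 with DEX, and in KO 2 and 2, the second being the scavenger lectin Colec12. With IL4 2 of 8 fell in WT (Fcnb and Colec12) and 1 in KO. Between genotypes 3, 2, 3 and 2 of 8 were lower in KO with vehicle, IL4, CORT and DEX, and 0 higher. The shares of all genes called were 30.1%, 5.94% and 13.7% with IL4, CORT and DEX in WT, 26.5%, 12.1% and 18.4% in KO, and 18.8%, 12.4%, 14.4% and 17.2% between genotypes. Masp1, a protease of the lectin pathway, was at 2.56 ± 2.17 CPM in WT vehicle (n = 3) and 0.0959 ± 0.0554 CPM in KO vehicle (n = 4), and Fcnb, a lectin of granulocytes, at 2.09 ± 1.79 and 0.0784 ± 0.0433 CPM. Both are low in KO, as the stromal and neutrophil markers are, and the part of those cells in their differences was not tested. The list of the alternative pathway adds Cfd, which was too low to be tested, and 1 of 7 terminal pathway genes was tested and did not pass.

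Among the regulators of complement, Serping1 encodes the inhibitor of C1r and C1s. It was at 6.77 ± 5.39 CPM in WT vehicle (SD, n = 3) and 1.98 ± 0.848 CPM in KO vehicle (n = 4). Serping1 was lower in KO with vehicle, by 1.78 ± 0.50 on the log2 scale (adjusted p = 0.0136), and with DEX, by 1.55 ± 0.49 (adjusted p = 0.0326), in the same direction as the stromal and neutrophil markers, whose part here was not tested. Its differences between genotypes with IL4, −1.34 ± 0.54 (adjusted p = 0.111), and with CORT, −1.33 ± 0.49 (adjusted p = 0.0735), did not pass, nor did any treatment against vehicle in either genotype. Of 7 membrane regulators 4 were tested. With IL4 2 of these fell in WT and 1 in KO, where 30.1% and 26.5% of all genes were called. With CORT and with DEX 0 passed in WT (5.94% and 13.7% of all genes) and 1 rose in KO (12.1% and 18.4%). Cd55, which speeds the decay of convertases, was at 54.1 ± 10.5 CPM in WT vehicle (n = 3) and 12.2 ± 2.14 CPM in WT IL4 (n = 3). In KO vehicle it was lower, at 22.3 ± 11.1 CPM (n = 4). With CORT it was at 79.0 ± 6.14 CPM in WT (n = 3) and 83.6 ± 8.60 CPM in KO (n = 4), and with DEX at 76.1 ± 26.0 and 57.6 ± 17.2 CPM. It fell with IL4, with log2 fold changes of −2.15 ± 0.36 in WT (adjusted p = 8.83e-05) and −1.44 ± 0.36 in KO (adjusted p = 0.00515), and rose in KO by 1.92 ± 0.30 with CORT (adjusted p = 0.00016) and 1.38 ± 0.30 with DEX (adjusted p = 0.00215).

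Of 13 complement receptors 12 were tested. With IL4, 4 rose and 3 fell in each genotype, where 30.1% of all genes were called in WT and 26.5% in KO. C5ar1, the main receptor of C5a, was at 501 ± 6.77 CPM in WT vehicle (SD, n = 3) and 168 ± 10.2 CPM in WT IL4 (n = 3), a log2 fold change of −1.58 ± 0.12 (adjusted p = 1.46e-09), and in KO it fell by 1.20 ± 0.11 (adjusted p = 6.12e-08). C5ar2, the second C5a receptor, fell by 1.45 ± 0.15 in WT (adjusted p = 9.83e-08) and 1.16 ± 0.14 in KO (adjusted p = 2.29e-06). Itgax, a chain of the C3 fragment receptor CR4, rose with IL4 by 4.09 ± 0.43 in WT (adjusted p = 2.87e-07) and 1.92 ± 0.35 in KO (adjusted p = 0.000382). With glucocorticoids 2 rose with CORT and 3 with DEX in WT, and in KO 3 rose and 2 fell with CORT and 4 rose and 2 fell with DEX. All genes were called at 5.94% and 13.7% in WT and at 12.1% and 18.4% in KO. Cd93, a receptor once described as binding C1q, rose by 0.63 ± 0.13 with CORT (adjusted p = 0.00265) and 0.76 ± 0.13 with DEX in WT (adjusted p = 0.00015), and by 0.76 ± 0.11 (adjusted p = 4.15e-05) and 0.75 ± 0.11 in KO (adjusted p = 2.23e-05). Between genotypes 2, 1, 1 and 1 of 12 were higher in KO with vehicle, IL4, CORT and DEX, and 1, 0, 0 and 1 lower, where 18.8%, 12.4%, 14.4% and 17.2% of all genes were called. With vehicle, Itgax was higher in KO by 2.14 ± 0.38 (adjusted p = 0.000409), Lair1, an inhibitory receptor that binds C1q, was higher by 0.75 ± 0.12 (adjusted p = 0.000131), and C5ar1 was lower by 0.49 ± 0.11 (adjusted p = 0.00191).

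All 13 listed transcription factors described for complement genes in myeloid cells were tested. With IL4 2 rose and 5 fell in WT and 1 rose and 3 fell in KO, against 30.1% and 26.5% of all genes called. With glucocorticoids 0 rose and 2 fell with CORT in WT, 1 rose and 2 fell with DEX in WT, 2 rose and 3 fell with CORT in KO, and 1 rose and 2 fell with DEX in KO. The matching shares of all genes were 5.94%, 13.7%, 12.1% and 18.4%. Maf rose with DEX by 0.49 ± 0.13 on the log2 scale in WT (adjusted p = 0.0114) and 0.67 ± 0.11 in KO (adjusted p = 0.000143), and fell with IL4 by 1.00 ± 0.13 in WT (adjusted p = 2.7e-06) and 0.65 ± 0.12 in KO (adjusted p = 0.00046). Nfkb1, a subunit of NF-kappaB, fell with DEX by 0.46 ± 0.07 in WT (adjusted p = 4.44e-05) and 0.37 ± 0.06 in KO (adjusted p = 7.53e-05). Nr1h3, the oxysterol receptor LXR alpha, fell with DEX by 0.37 ± 0.09 in WT (adjusted p = 0.00709) and 0.38 ± 0.08 in KO (adjusted p = 0.000984), and was higher in KO under all 4 treatments, by 0.49 ± 0.09 with vehicle (adjusted p = 0.000252). Between genotypes 2, 1, 3 and 1 of 13 were higher in KO with vehicle, IL4, CORT and DEX, and 0 lower, near or below the 18.8%, 12.4%, 14.4% and 17.2% of all genes called except with CORT.

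Across the 27 libraries, which share treatments and genotype, C1qb and C1qc varied most alike among the members (Pearson r of log2 CPM 0.97). C1qa followed C1qc (r 0.92) more closely than C1qb (r 0.84). C3 ran against all 3 chains, with r of −0.81 for C1qa, −0.86 for C1qb and −0.87 for C1qc. Cfp followed none of them closely (r 0.18 to 0.31). The genes most like each member by r were sought among the genes tested, leaving out predicted genes and clone names. For C1qa they were Cela1 (0.97), P4ha2 (0.97) and Sh3bp5 (0.94). They were C1qc (0.97), Serpinb6a (0.95) and Slc9a3r1 (0.95) for C1qb, and C1qb (0.97), Sh3bp5 (0.97) and Serpinb6a (0.94) for C1qc. They were Src (0.93), Fgr (0.93) and Mfge8 (0.92) for C3, and Vps37c (0.85), Inka1 (0.84) and Otulinl (0.83) for Cfp. For C4b they were Syde1 (0.82), Ccn5 (0.81) and the stromal marker Col3a1 (0.79).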

How the data were processed

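The authors deposited a table of unnormalized gene counts for 27 libraries. Per the labels' protocols, these libraries were strand-marking (NEBNext Ultra II Directional), made from poly(A) RNA and read as pairs of 50 bp. Per the submitters' processing notes, fastp 0.23.2, STAR 2.7.0, featureCounts, edgeR 3.38.4 and the build mm10 were used. Sources used here do not give the strand setting of featureCounts.

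Genes were filtered with filterByExpr (minimum count 10), scaled by TMM and tested in 1 model of 8 groups with edgeR 4.0.16 in R 4.3.3 (quasi-likelihood F test, robust, common biological coefficient of variation 0.122), adjusted by the Benjamini-Hochberg method over 14589 genes and called at an adjusted p under 0.05. CPM is a gene's count relative to the library total after TMM scaling. DESeq2 1.42.0 was an alternative, besides those in the closing section. The test was checked on simulated data. All members were named in every comparison, and of each list up to 4 genes by smallest adjusted p. Some genes and motifs that this rule or the searches would name are not reported here. Members and lists were chosen with earlier results of these data known. Gene positions came from GENCODE M21, promoters from RefSeq.

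Replicate numbers pair libraries here where every same-numbered pair's deviations from the group means correlated over 0.1. This held in 11 of 12 comparisons within a genotype (0.193 to 0.713 in WT), the exception being DEX against vehicle in KO (lowest 0.00519). Against vehicle in KO the pairs were at 0.115 to 0.28 with IL4 and 0.112 to 0.274 with CORT, so the lowest were little above 0.1. The rule held in no comparison between genotypes.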

Additional observations from a re-analysis of the deposited data

Results flagged for a closer look

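In groups of 4 libraries, each member's highest and lowest library was compared with the rest of its group, in 21 such groups, and 2 held a library that stood apart by Dixon's criterion, which chance alone meets in about 1 of 20 groups. C3 with CORT in KO was at 58.6 CPM in library 4, while the next library was at 45.5 CPM. C4b with DEX in KO was at 0.392 CPM in library 3, while the next was at 0.506 CPM, on 11 counts.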

How the results depend on the processing

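Of 44 calls of members over the 19 comparisons, 31 were kept under all alternatives and 13 were lost under at least 1. No member changed direction while called. Scaling by RLE kept every level within the spread of its group. The number of members called moved as follows, and the edgeR 4 fit moved none. When the fit held the compared groups alone, it was 2 in place of 1 for IL4 in WT, 3 in place of 2 for CORT in WT, 0 in place of 2 for IL4 in KO, 1 in place of 3 for genotype with IL4, 3 in place of 2 for genotype with CORT and 6 in place of 5 for IL4 against DEX in KO. With the replicate block it was 3 for IL4, 5 for CORT and 5 in place of 4 for DEX in WT, 5 for IL4 in KO, 6 for IL4 against DEX in KO and 1 in place of 0 for the DEX interaction (Cfp, adjusted p = 0.0348). With DESeq2 it was 3 for CORT and 5 for DEX in WT, 3 for IL4 in KO, 2 in place of 1 for genotype with vehicle, 3 for genotype with CORT and 1 for the DEX interaction. Without the 4 libraries high in Arg1 (WT DEX 1, KO vehicle 2 and 3, KO DEX 2) it was 3 for CORT and 5 for DEX in WT, and 1 for IL4 and 3 in place of 4 for CORT and for DEX in KO. Without the WT libraries numbered 1 it was 0 for IL4 and 1 for CORT in WT, 4 for IL4 and 6 for IL4 against DEX in KO, 2 for genotype with IL4 and 1 for genotype with CORT. Scaling by RLE gave 3 for genotype with CORT, and no filter on low counts gave 3 for DEX in KO. The cause of these moves was not tested.

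Leaving out 1 library at a time gave 0 to 2 for IL4, 1 to 4 for CORT and 3 to 5 for DEX in WT, 0 to 4 for IL4 and 3 to 4 for CORT and for DEX in KO, and 5 to 6 for IL4 against DEX in KO. Between genotypes it gave 1 to 2 with vehicle, 2 to 3 with IL4 and with DEX, and 1 to 3 with CORT. Between genotypes, where the numbers do not pair the libraries, the replicate block gave C1qb with IL4 −0.29 (adjusted p = 0.0577) and C4b with IL4 −1.71 (adjusted p = 0.0345), and it changed no other call besides those given with the results. Of all genes, 866 were called with CORT in WT (486 to 1790 over the alternatives), 1996 with DEX in WT (1327 to 3225), 3873 with IL4 in KO (1745 to 5219), 1762 with CORT in KO (941 to 2974) and 2684 with DEX in KO (1789 to 4056). Between genotypes they were 2738 with vehicle (1641 to 3208), 1802 with IL4 (616 to 2041), 2102 with CORT (1057 to 2562) and 2512 with DEX (1378 to 3035). The interactions had 4 (0 to 149), 3 (0 to 110) and 27 (3 to 214), and DEX against CORT 27 in WT (10 to 137) and 47 in KO (19 to 274). Cfb has no value in the fit with the filter. C4b and Cfb are limited by depth, with at most 34 and 6 counts in a library.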
